A study of Homo sapiens with 4 samples.

Results

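The genes of the proteasome were examined in poly-A RNA of H1299, a long-established cell line from a human lung carcinoma of the non-small-cell kind, after 48 h with 5 μM HgCl2 or with the solvent, 0.6% EtOH. Members were the protein-coding genes whose symbols consist of PSMA to PSMG and a number, with POMP, ADRM1, SEM1 and NFE2L1, and pseudogenes were left out. The rule found 52 of 19926 protein-coding genes, with 497 of the 227368 transcripts that the tables list. The treatment text of the labels gives 5 μM for all 4 samples, whereas the study's methods give the control cells the solvent, and the latter is used here.

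The proteasome degrades proteins that carry chains of ubiquitin. Its 20S core is a barrel of stacked rings, in which alpha subunits gate the entry and 3 kinds of beta subunit cut peptide bonds, and the 19S cap on its ends recognises, de-ubiquitinates and unfolds the substrate. Dedicated chaperones assemble both, other caps replace the 19S cap, and NFE2L1 is the transcription factor that raises subunit genes when proteasome activity is short. Introns can remain in the RNA of a gene, and the annotation lists many such retained-intron transcripts beside the coding ones.

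The tables hold 2 columns for each group, with total counts of 5051958 and 5053120 for EtOH and of 4722772 and 4720978 for HgCl2. The columns of a group differed by less than sampling noise. The variance of their difference was 0.505 times the counting variance for EtOH and 0.516 times for HgCl2, against 31.9 times for EtOH replicate 1 and HgCl2 replicate 1. The columns were therefore counted as 1 sample a group. The comparison is of 1 sample with 1 sample, with no replicate check and no p-value, and 95% intervals (Clopper-Pearson for fold changes, Wilson for shares) were computed on mean counts and cover only the error of counting. The PCR reads behind them carry no molecular identifiers. "Past 2-fold" is a description of these libraries. In bulk RNA, fewer cells of a type and less RNA per cell cannot be told apart. Of 5 genes of the line, VIM, KRT8, KRT18 and CDH2 had counts and EPCAM had 0, and their sum per column was 709 and 723 with EtOH and 524 and 548 with HgCl2. VIM made up most of it (620 and 628 against 501 and 511), while KRT8 had 53 and 58 against 4 and 4, CDH2 13 and 13 against 1 and 2, and KRT18 23 and 24 against 18 and 31. Of 5 genes of other cells, 3 had counts, with sums of 20 and 22 against 4 and 6, and PTPRC and ALB were at 0. The part of these differences in the results was not tested.

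The counts lay on bases that set transcripts apart. Of the 497 member transcripts, 224 have no base that no other listed transcript covers, and 9 of these (4.02%) had a count. A run of at least 150 bases of their own was found in 138 transcripts, of which 103 (74.6%) had a count, and these held 85.6% of the member counts. A sum over the transcripts of a gene is therefore a sum over such stretches, and is not read as the level of the gene. Values are compared between groups for the same gene or transcript, and a fold change is HgCl2 against EtOH, from edgeR with TMM normalization.

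Stretches from genes whose transcripts differed in their shares are shown first, because they say which part of a gene the counts report on. All are on GRCh38, 5′ to 3′. The first pair are coding bases of PSMD14, the de-ubiquitinating subunit of the cap, which no other listed transcript covers. They are most of an exon at chr2:161370120-161370177 and the whole next exon at chr2:161371172-161371322 (plus strand). Capitals in the second mark the codons of the JAMM motif, the metal-binding signature of this class of protease, found by translating the coding sequence.
PSMD14 exon, ENST00000409682: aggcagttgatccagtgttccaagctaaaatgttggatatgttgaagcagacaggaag
PSMD14 JAMM exon, ENST00000409682: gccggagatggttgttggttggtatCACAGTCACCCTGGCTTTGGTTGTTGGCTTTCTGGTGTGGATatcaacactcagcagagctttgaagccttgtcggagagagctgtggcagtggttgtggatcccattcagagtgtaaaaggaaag
The other stretches lie in introns of the canonical transcript, the representative transcript that the annotation marks for each gene. Capitals mark the bases at an intron's edge, GT at its 5′ end and AG at its 3′ end. They belong to PSMA7, an alpha subunit (chr20:62139198-62139330, minus strand), to PSMC5, an ATPase of the cap (chr17:63828563-63828857 and chr17:63829564-63829743, plus strand), and to PSMD4, a ubiquitin receptor of the cap (chr1:151262302-151262559, plus strand). The PSMC5 stretches overlap the span of FTSJ3 on the opposite strand.
PSMA7 intron, ENST00000486193: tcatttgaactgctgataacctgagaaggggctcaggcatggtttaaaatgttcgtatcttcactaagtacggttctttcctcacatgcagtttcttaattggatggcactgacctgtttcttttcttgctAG
PSMC5 intron, ENST00000579147: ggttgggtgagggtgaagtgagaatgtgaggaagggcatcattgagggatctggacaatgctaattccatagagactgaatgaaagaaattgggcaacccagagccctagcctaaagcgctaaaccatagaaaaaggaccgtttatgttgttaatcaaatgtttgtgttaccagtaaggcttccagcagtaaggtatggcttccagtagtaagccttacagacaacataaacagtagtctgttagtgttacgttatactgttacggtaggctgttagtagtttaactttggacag
PSMC5 intron, ENST00000581764: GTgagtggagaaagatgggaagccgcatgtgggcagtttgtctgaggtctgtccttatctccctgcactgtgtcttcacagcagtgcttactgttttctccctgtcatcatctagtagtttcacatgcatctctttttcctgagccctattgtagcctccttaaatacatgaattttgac
PSMD4 intron, ENST00000461434: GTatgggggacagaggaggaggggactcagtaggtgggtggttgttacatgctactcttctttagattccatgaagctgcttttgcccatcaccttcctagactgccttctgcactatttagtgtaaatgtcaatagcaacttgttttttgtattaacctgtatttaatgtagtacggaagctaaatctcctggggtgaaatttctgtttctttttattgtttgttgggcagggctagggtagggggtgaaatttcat

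Summed over all members, the counts were 5018 and 4976 with EtOH and 5382 and 5437 with HgCl2, or 0.0993%, 0.0985%, 0.114% and 0.115% of all counts. A few genes held most of them. PSMD5 alone held 26.2%, and PSMD5, PSMD7, PSMD10, PSMB1 and PSMD12 together held 66.3%. Of the 52 genes, 22 had a mean of at least 30 counts over the 4 columns, 24 had fewer and 6 (PSMA8, PSMB10, PSMB11, PSME1, PSME2 and PSME3) had 0 in every column. A count of 0 allows up to 3 counts. Among all protein-coding genes 41.8% were at 0 and 25.5% had such a mean, against 11.5% and 42.3% of the members.

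Of the 22 well-counted genes, PSMA2, PSMA7, PSMD4, PSMF1 and PSMG2 were at least 2-fold higher with HgCl2 and PSMA5 and PSMC1 at least 2-fold lower. Over all 6434 gene sums with such a mean, 8.33% were past 2-fold higher and 12% past 2-fold lower, against 22.7% and 9.09% of the members. The median log2 fold change was 0.15 for the members and -0.00 for all. Summed over protein-coding transcripts alone, 14 members were well counted, with 2 higher and 2 lower, against 6.11% and 10.1% of all genes. FPKM values are fragments per length of transcript, which the study scaled with the median ratio method of DESeq2. On the scale of the deposited FPKM values, every gene sum is 0.33 higher in log2. There, PSMB1 (1.14) and SEM1 (1.15) are also past 2-fold higher, PSMC1 is at -0.80, and the shares over all genes are 15.8% and 7.34%.

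**Figure D1:**
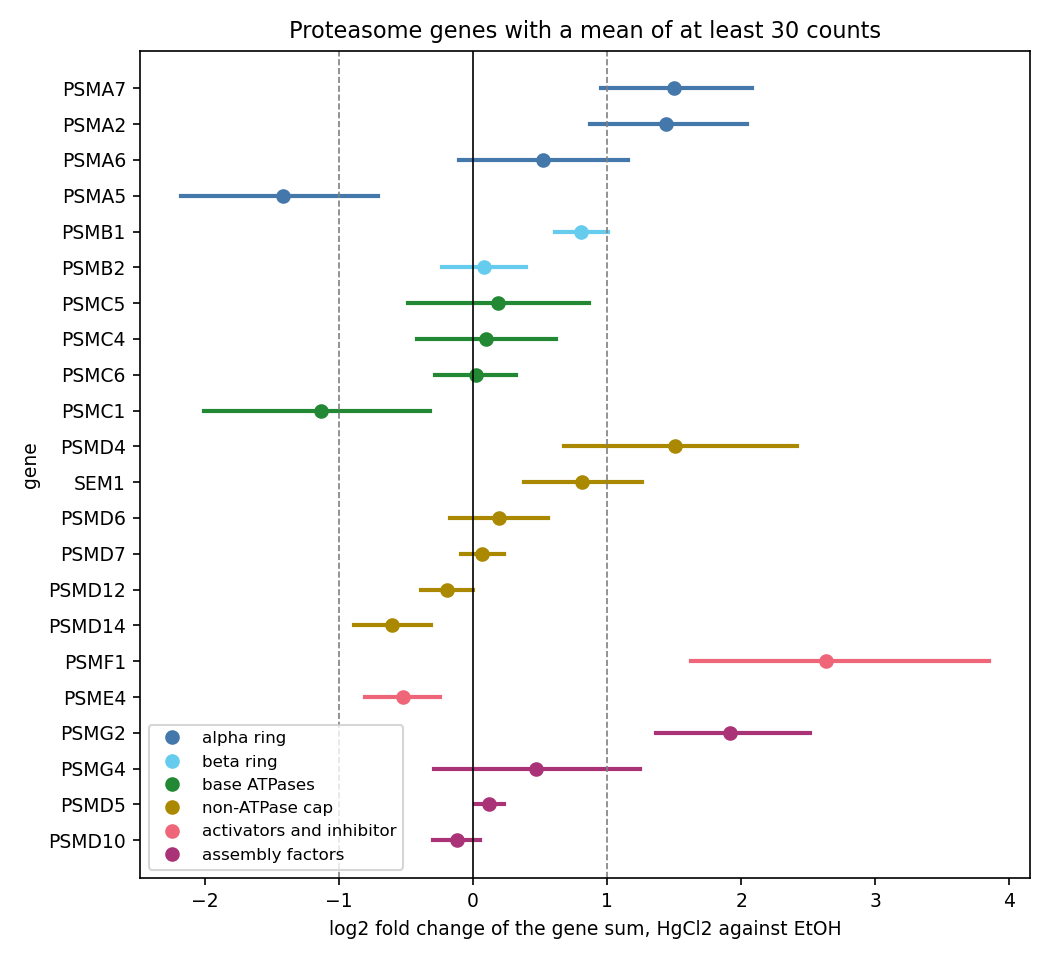
Log2 fold change (HgCl2 against EtOH, x axis) of the summed counts of the 22 proteasome genes with a mean of at least 30 counts, ordered by role and coloured by it. Lines are 95% Clopper-Pearson intervals from the mean counts (1 sample a group), dashed lines mark 2-fold, and 5 genes lie above and 2 below these lines while PSMD5 and PSMD7 have narrow intervals close to 0.

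The alpha ring forms the gate of the core. Of its 8 genes, 4 were well counted, and they lay on both sides. PSMA7 had 38 and 37 counts with EtOH and 102 and 112 with HgCl2, a log2 fold change of 1.50 (0.95 to 2.08). PSMA2 had 35 and 35 against 94 and 98 (1.44, 0.87 to 2.04). PSMA5 had 62 and 60 against 23 and 23 (-1.42, -2.18 to -0.71). The sums of PSMA7 and PSMA2 were thus high and that of PSMA5 low in both HgCl2 columns, which count as 1 sample. Of the PSMA2 sum, 100% with EtOH and 95.8% with HgCl2 lay on the retained intron ENST00000411875. The PSMA7 transcripts went in both directions. ENST00000486193 had 12 and 12 against 57 and 63, and coding ENST00000370858 had 24 and 24 against 9 and 9. The interval of PSMA6 (43 and 33 against 51 and 59) went from -0.10 to 1.16. PSMA3 fell just under the minimum of 30, with 16 and 18 against 35 and 50.

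The beta ring holds the cutting sites. The genes of its catalytic subunits had few counts: PSMB5, which cuts after hydrophobic residues, had 3 and 1 counts with EtOH and 1 and 0 with HgCl2. PSMB6, which cuts after acidic residues, had 5 and 5 against 0 and 2. PSMB7, which cuts after basic residues, had 16 and 14 against 9 and 11. No fold was read from these counts. The counterparts of the immunoproteasome, the form that interferon induces, were equally sparse. PSMB8 had 6 and 7 against 5 and 4, PSMB9 had 9 and 10 against 5 and 2, and PSMB10 was at 0. The well-counted genes of the ring were PSMB1 and PSMB2, which are not catalytic. PSMB1 had 329 and 324 against 566 and 586 (0.81, 0.61 to 1.01). It was above the EtOH columns in both HgCl2 columns, which count as 1 sample. PSMB2 had 176 and 163 against 173 and 189, with an interval from -0.23 to 0.39.

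The base of the cap is a ring of 6 ATPases that unfold the substrate and thread it into the core. PSMC6 had the most counts of them, 169 and 198 against 176 and 199, with a log2 fold change of 0.02 (-0.28 to 0.32). PSMC4 (0.10) and PSMC5 (0.19) were also within 2-fold. PSMC1 had 36 and 47 against 16 and 22 (-1.13, -2.01 to -0.32). It is close to the minimum of 30 counts, and without EtOH replicate 2 or without HgCl2 replicate 1 its value was -0.93. Most of its counts were on the retained introns ENST00000555787 (24 and 27 against 15 and 20) and ENST00000554624 (7 and 17 against 1 and 2).

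The non-ATPase subunits of the cap bind ubiquitin, remove it and hold the base in place. PSMD7, the partner of PSMD14, had 621 and 648 against 677 and 666, with an interval from -0.09 to 0.23. PSMD12, a scaffold subunit, had 463 and 448 against 413 and 390 (-0.39 to 0.00). Both were well within 2-fold. PSMD4 had 16 and 17 against 52 and 43 (1.51, 0.68 to 2.42), with most HgCl2 counts on the transcript whose intron stretch is printed above. SEM1, a small subunit that also binds BRCA2, had 61 and 77 against 122 and 123 (0.81, 0.38 to 1.26). PSMD14 had 260 and 247 against 161 and 176 (-0.60, -0.89 to -0.32). ADRM1, the other main ubiquitin receptor, had a single count in EtOH replicate 2 and 0 elsewhere.

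Among the activators, PSME4, which encodes the cap PA200, had 279 and 244 against 192 and 175 (-0.52, -0.80 to -0.25). PSMF1, which encodes the proteasome inhibitor PI31, had 11 and 7 against 59 and 55. Its log2 fold change of 2.63 (1.63 to 3.85) was the highest among the 22 genes. All of its counts were on the canonical transcript, whose own bases at chr20:1168379-1172246 are a 3′ untranslated exon. PSME1, PSME2 and PSME3, the subunits of the 11S activators, were at 0.

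The assembly factors differed among themselves. PSMG1 and PSMG2 form the pair that builds the alpha ring. PSMG2 had 32 and 35 against 130 and 126 (1.92, 1.36 to 2.52), while its partner PSMG1 had 15 and 9 against 6 and 3. Of the PSMG2 counts, 32.8% with EtOH and 93.0% with HgCl2 were on the non-canonical transcript ENST00000590217. No other PSMG2 transcript had a higher mean with HgCl2. PSMG3 and PSMG4 form the second pair, with 3 and 4 against 0 and 0 for PSMG3 and 30 and 23 against 36 and 38 for PSMG4. POMP, which brings in the beta subunits, had 4 and 4 against 1 and 0. Of the chaperones of the cap base, PSMD9 had 2 and 1 against 0 and 0, and PSMD5 and PSMD10 had many counts and were close to 0. PSMD5 had 1275 and 1325 against 1424 and 1431 (0.12, 0.01 to 0.23). PSMD10, also known as gankyrin, had 590 and 559 against 545 and 519 (-0.30 to 0.05). NFE2L1 itself had 7 and 11 against 1 and 0.

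Of the 24 genes with counts under the minimum, 21 (87.5%) had fewer counts with HgCl2 than with EtOH. Over all 6509 protein-coding genes of this kind the share was 76.2%. The 3 exceptions were PSMA3, PSMB3 (6 and 3 against 8 and 8) and PSMC3, which had a single count, in HgCl2 replicate 2. Among the others, PSMA1 had 20 and 20 against 4 and 5, PSMC2 12 and 16 against 2 and 1, PSMD11 15 and 14 against 3 and 5, and PSMD13 46 and 32 against 12 and 19. The number of member transcripts with any count was 129 and 125 with EtOH and 101 and 103 with HgCl2, and that of all transcripts was 33148 and 33106 against 25432 and 25531.

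By transcript, 72 of the 497 passed the filter, which asks for a group with an average FPKM over 1. Of these, 20 (27.8%) were at least 2-fold higher and 20 (27.8%) at least 2-fold lower, against 19.2% and 34.1% of all 17547 such transcripts. Most of these rested on few counts, since 24 of the 40 had at most 3 counts in one of the groups. Among the 24 with a mean of at least 30 counts, 7 (29.2%) were higher and 2 (8.33%) lower, against 15.5% and 9.53% of all. Their median log2 fold change was 0.27, against 0.21 for all. Transcripts and gene sums were scaled separately, and an equal ratio of counts is 0.16 higher in log2 on the transcript scale.

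**Figure D2:**
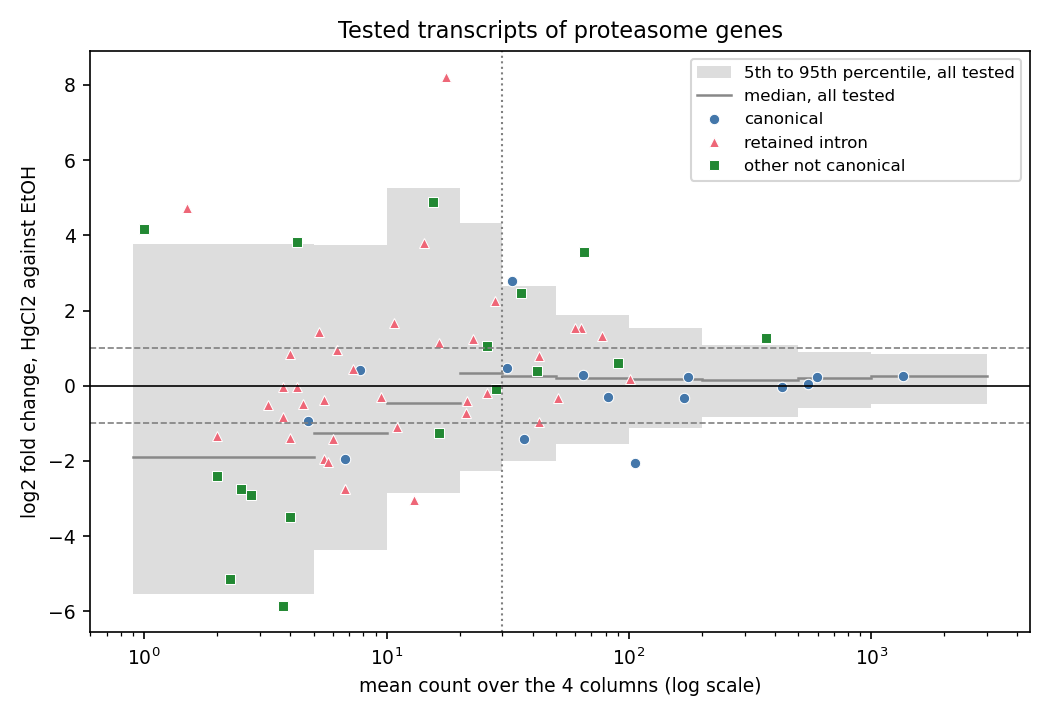
Mean count over the 4 columns (log axis) and log2 fold change (HgCl2 against EtOH) of the 72 tested proteasome transcripts, by kind. Grey steps span the 5th to 95th percentile of all tested transcripts at that mean, the dotted line marks 30 counts and dashed lines mark 2-fold; right of the dotted line, 7 member transcripts lie above and 2 below 2-fold.

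The kind of transcript differed between the directions. Of the 12 well-counted canonical transcripts, 1 was higher (PSMF1) and 2 were lower (PSMD14 and PSMA5), against 8.8% and 9.83% of all canonical transcripts. Of the 12 others, 6 were higher and 0 lower, against 26.3% and 9.04% of all. Retained introns were 7 of these, with 3 higher and 0 lower (32.5% and 6.7% of all). The 12 non-canonical transcripts, higher or not, have their own bases in introns of the canonical transcript. This follows largely from the definition, since own bases cannot lie in an exon of another listed transcript. Over all genes, too, non-canonical transcripts were more often past 2-fold higher than canonical ones (26.3% against 8.8%), and the difference between the members and all genes was not tested.

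PSMG2 ENST00000590217, a coding transcript with a 3′ end of its own (chr18:12724620-12724868), had 11 and 11 counts with EtOH and 121 and 117 with HgCl2, a log2 fold change of 3.56 (2.69 to 4.62). PSMA7 ENST00000486193, with the intron stretch printed above, had 12 and 12 against 57 and 63 (2.45, 1.56 to 3.50). PSMB1 ENST00000462957, whose 1328 bases at chr6:170549114-170550441 are intronic, had 236 and 228 against 494 and 518 (1.27, 1.04 to 1.50). In each of these the lowest HgCl2 column was more than 2-fold above the highest EtOH column, but the columns of a group count as 1 sample. The same held for PSMF1 and for the retained introns of SEM1, PSMA2 and PSMD14 given next. The FPKM values of PSMB1 were 22.2 and 21.4 against 57.9 and 60.8.

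The retained introns of SEM1, PSMA2 and PSMD14 were the remaining non-canonical ones. SEM1 ENST00000482389 (chr7:96694892-96697372) had 30 and 36 against 86 and 88 (1.54, 0.95 to 2.17). PSMA2 ENST00000411875 had 35 and 35 against 90 and 94 (1.53, 0.96 to 2.14). Its own bases lie within the span of the gene ENSG00000256646 on the same strand, but no exon of another listed transcript covers them. PSMD14 ENST00000477232 (chr2:161381360-161385463) had 50 and 45 against 101 and 113 (1.31, 0.81 to 1.84). How far reads of the overlapping gene enter the PSMA2 counts was not tested.

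**Figure D3:**
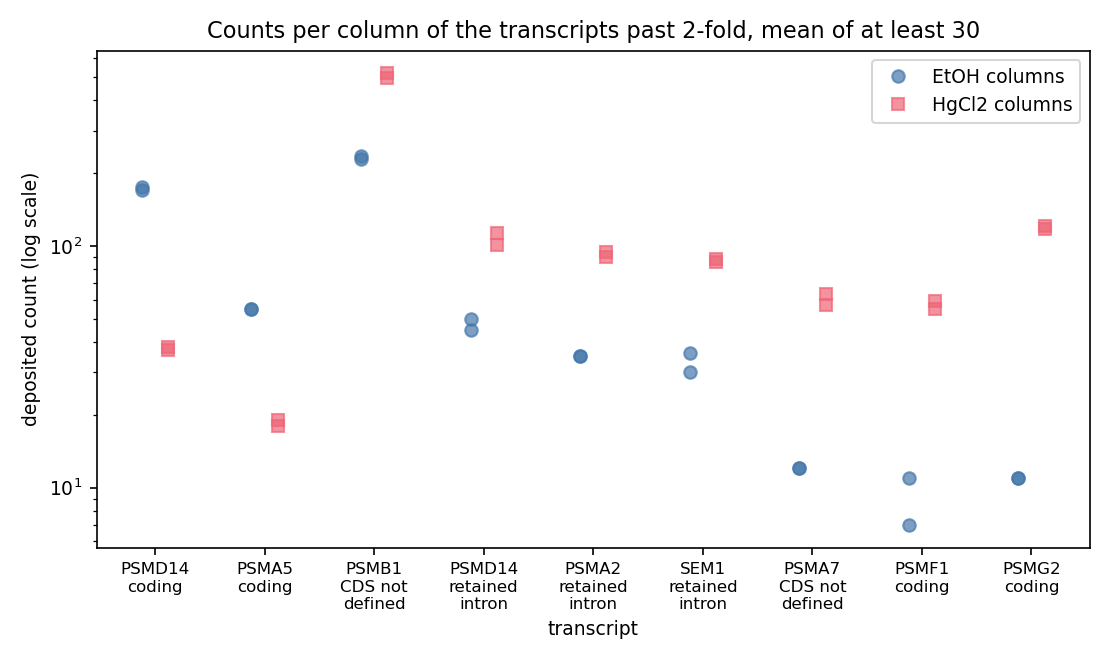
Deposited counts (log axis) in each of the 4 columns for the 9 proteasome transcripts past 2-fold whose mean is at least 30 counts, ordered by log2 fold change. The columns of a group lie close together, with PSMD14 coding lowest in fold (176 and 171 against 37 and 38) and PSMG2 highest (11 and 11 against 121 and 117).

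Within PSMD14 the transcripts went in opposite directions. The coding transcript, whose own bases are chiefly the exons printed above, had 176 and 171 counts with EtOH and 37 and 38 with HgCl2, a log2 fold change of -2.06 (-2.62 to -1.55). It was 68.4% (62.5 to 73.9) of the counts of the gene with EtOH and 22.3% (16.6 to 29.1) with HgCl2. The retained intron ENST00000477232 went from 18.7% (14.4 to 24.0) to 63.5% (56.0 to 70.4). The downstream retained intron ENST00000492908 was at 11.4% and 13.6%, with intervals that overlap. PSMD14 was the only gene with well-counted transcripts past 2-fold in both directions.

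Shares also differed between the groups in PSMB1 and PSMA7. In PSMB1 the coding transcript had 93 and 96 against 72 and 68, with an interval of its log2 fold change from -0.76 to 0.17. Its share was 28.9% (24.3 to 34.1) with EtOH and 12.2% (9.73 to 15.1) with HgCl2. In PSMA7 the coding transcript ENST00000370858, which ends within an intron of the canonical one, had 24 and 24 against 9 and 9, or 64.0% against 8.41% of the gene. The coding transcript ENST00000370861, which has a first exon of its own, had 1 and 1 against 28 and 32, or 2.67% against 28.0%. Both shares have intervals that do not overlap between the groups.

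In PSMC5 the gene sum was within 2-fold while the shares of its retained introns differed. Retained intron ENST00000579147 had 29 and 26 against 17 and 13, with an interval from -1.74 to 0.23 in log2. ENST00000581764 had 2 and 2 against 28 and 25 (3.79, 1.88 to 6.99), with their stretches printed above less than a kilobase apart. Their shares of the gene were 74.3% and 5.41% with EtOH and 35.3% and 62.4% with HgCl2. PSMD4 ENST00000461434 had 9 and 12 against 49 and 42, or 63.6% (40.0 to 82.1) against 95.8% (85.9 to 98.8) of the gene. PSMA3 ENST00000553665 had 0 and 0 against 29 and 41, at least 12.9-fold higher against a floor of 3 counts and with a lower 95% limit of 3.31 in log2, in bases that ARMH4 also spans on the opposite strand. PSMD13 ENST00000527047 went the other way, with 28 and 19 against 0 and 5.

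**Figure D4:**
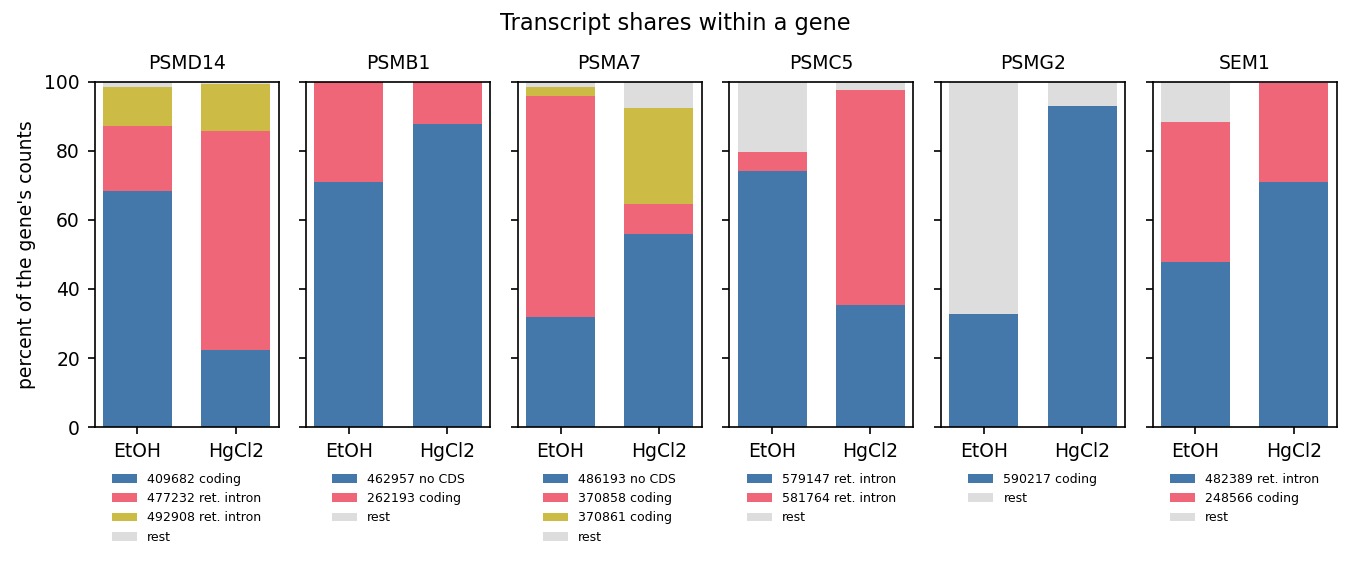
Percent of the counts of a gene on each transcript (y axis), as means of the columns of EtOH and HgCl2, for 6 genes; labels give the last digits of the transcript identifier and its kind, and grey is the rest. The coding transcript of PSMD14 takes 68.4% with EtOH and 22.3% with HgCl2, and the non-canonical transcripts of PSMG2 and SEM1 take larger shares with HgCl2.

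In PSMD7, PSMD5 and PSMD12 the shares stayed close. The coding transcript of PSMD7 held 91.5% and 91.4% of its gene, that of PSMD5 99.1% and 98.3%, and that of PSMD12 99.3% and 99.4%. The PSMD7 transcript has 1 base of its own in the annotation used here, which is a later release than that of the counting. Per length, the FPKM values of these canonical transcripts were 63.4 and 66.2 against 86.5 and 84.7 for PSMD7, 67.9 and 70.9 against 94.6 and 94.2 for PSMD5 and 19.2 and 18.6 against 21.5 and 20.2 for PSMD12. FPKM per count was 1.25 times higher in the HgCl2 columns for all transcripts, and on the edgeR scale their log2 fold changes were 0.22, 0.27 and -0.04.

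Other genes of the pathway were taken from a list of 32. Of these, 21 were well counted, 1 was at least 2-fold higher and 2 at least 2-fold lower, with a median log2 fold change of -0.22. Over all gene sums the shares were 8.33% and 12% and the median -0.00. UBB, which encodes a chain of ubiquitin units, had 33 and 34 against 79 and 68 (1.12). NFE2L2, the relative of NFE2L1 that answers oxidants, had 45 and 48 against 20 and 12 (-1.54), and NFE2L3 had 131 and 129 against 66 and 63 (-1.02). RAD23B, a shuttle that carries ubiquitinated proteins to the cap, had 0 and 0 against 29 and 32, at least 10.1-fold higher against the floor of 3 counts and with a lower 95% limit of 2.95 in log2. The enzymes that activate NFE2L1 were within 2-fold, with -0.62 for VCP, -0.57 for NGLY1 and -0.21 for DDI2. USP14 and UCHL5, the other de-ubiquitinating enzymes of the cap, were at 0.25 and -0.14.

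The promoters of the members were searched for TGACNNNGC on both strands, the core of the element that NFE2L1 and NFE2L2 bind, from 250 bases before to 50 after each start. RefSeq promoters (GRCh38.p14) matched 46 of the member genes, with 59 promoters. The letters were in 18 promoters (30.5%), of 17 genes, against 4687 of 35116 promoters of all genes (13.3%). Matches in capitals are given for an assembly factor of each kind, a scaffold subunit of the cap and a beta subunit. They lie at chr9:120843038-120843066 (minus strand), chr18:12658689-12658717 (plus), chr17:67366724-67366752 (minus) and chr17:38752627-38752655 (plus).
PSMD5 promoter: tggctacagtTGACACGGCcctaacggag
PSMG2 promoter: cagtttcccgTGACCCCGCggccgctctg
PSMD12 promoter: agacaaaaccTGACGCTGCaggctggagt
PSMB3 promoter: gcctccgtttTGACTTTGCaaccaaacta
These genes had log2 fold changes of 0.12 for PSMD5, 1.92 for PSMG2 and -0.19 for PSMD12, and PSMB3 had 6 and 3 against 8 and 8 counts. Among the remaining genes with a match, PSMC4, PSMC5 and SEM1 had more counts with HgCl2. ADRM1, PSMA4, PSMB9, PSMD1, PSMD3, PSMD9, PSME4 and PSMG1 had fewer, and PSME1 and PSME2 were at 0. Of the other genes past 2-fold, PSMF1, PSMA2, PSMA5 and PSMC1 had no match in the promoters searched. No match was found for PSMA7 or PSMD4 either, and their promoters may not have been among those searched. A match or its absence describes the letters only.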

How the data were processed

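Transcriptomes of H1299 cells were compared after 48 h with 5 μM HgCl2 or 0.6% EtOH. The authors deposited raw counts per transcript of Ensembl 98 and FPKM values made from them, without pooling. Poly-A libraries were made with a TruSeq kit. The submitters' processing notes name CASAVA, Trim Galore, STAR 2.5.4b, limma, edgeR 3.28.1, DESeq2 1.26.0 and GRCh38. The study calls the sequencing directional, but the counting options for strand and for reads that several transcripts share are not given in the sources used here. Either could decide which transcripts carry counts.

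Fold changes were computed from the counts with edgeR 4.0.16 (glmQLFit, TMM, R 4.3.3) over the 17547 transcripts whose average FPKM exceeded 1 in either group, and over 6434 gene sums with a mean of at least 30 counts. Total counts per column lay between 4720978 and 5053120. The columns of a group differed by less than sampling noise, so each group was 1 sample, and no p-value is given. The study calls its libraries independent biological replicates. Gene names, transcript kinds and coordinates come from GENCODE 44 (98.3% of identifiers found). Intervals used scipy 1.17.1, with pandas 2.3.3 and matplotlib 3.10.9. The edgeR step was tested on simulated data.

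Members and lists were chosen with earlier results of these data known. Named were the catalytic and immunoproteasome subunits, NFE2L1, POMP, ADRM1, SEM1, the PSMG and PSME genes and PSMF1, in each class the gene with the largest sum and those past 2-fold, and well-counted transcripts past 2-fold. PSMA1, PSMA3, PSMA6, PSMB2, PSMB3, PSMC2, PSMC3, PSMC4, PSMC5, PSMD11, PSMD12, PSMD13, PSMD14 and the transcripts of PSMC5, PSMD4, PSMA3 and PSMD13 were added after their values were seen, as were the shares within genes. Some items of the pathway list are not reported here. Alternatives changed filter, normalization, tool, pseudocount, replicate block and columns.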

Additional observations from a re-analysis of the deposited data

How the results depend on the processing

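Counts of transcripts past 2-fold depended on the filter on low values. The main filter gave 20 higher and 20 lower of 72. At least 10 counts in every column gave 7 and 3 of 29, a mean of at least 30 counts with a fit of its own gave 7 and 3 of 24, and no filter gave 38 and 64 of 152 with a median of -0.61 (-0.83 for all transcripts). filterByExpr gave 8 lower of 42, and limma on log2(FPKM + 1) gave 13 lower. The main filter asks for FPKM, which depends on length as well as on counts. It kept PSMA5 ENST00000491287 (0 and 0 against 3 and 1) and left out the longer PSMA4 ENST00000044462 (12 and 13 against 5 and 5). For gene sums, a mean of at least 100 counts left 10 genes with 0 higher and 0 lower, no filter gave 10 and 16 of 46 with a median of -0.28 (-0.63 for all), and protein-coding transcripts only gave 2 higher of 14. The deposited FPKM scale, added after the data were seen, gave 1 lower. For alternatives other than the protein-coding sums and the deposited scale, no share over all transcripts or gene sums is given. Their counts are therefore not read as a result about the members. The column difference of HgCl2 was 0.497 at a sum of at least 100 counts.

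Leaving out 1 column gave 18 to 22 transcripts higher, 21 to 23 lower and a median of -0.05 to 0.14. Gene sums gave 5 to 5 higher, 1 to 2 lower and a median of 0.10 to 0.19, the lower count falling to 1 without EtOH replicate 2 or HgCl2 replicate 1 (PSMC1, -0.93 in both). The well-counted transcripts, a split added after the data were seen, gave 7 higher throughout and 2 lower, or 3 without either of these columns, when PSME4 ENST00000488687 (-0.96) was at -1.03 and -1.01. The replicate numbers are only numbers here. With the replicate block, transcripts gave 20 and 20 with a median of -0.03, gene sums gave 5 and 2 with a median of 0.15, and none of the 46 named values moved by more than 0.000235. Over 276 alternatives of these 46 values, none past 2-fold changed sign, while 2 values near 0 did: the PSMC6 gene sum (0.02) was -0.09 without EtOH replicate 1 and -0.07 without HgCl2 replicate 2, and PSMD12 ENST00000356126 (-0.04) was 0.0032 with DESeq2 size factors and 0.0058 without HgCl2 replicate 2. Intervals of genes under 30 counts are wide at this depth, and no fold change was fitted for them.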

Other observations

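Genes beside the members and related to them by name or position differed as well. NFE2L1-DT, a non-coding RNA that starts next to NFE2L1, had 45 and 50 counts with EtOH and 4 and 4 with HgCl2, while NFE2L1 itself had 7 and 11 against 1 and 0. PSMD6-AS1 and PSMD6-AS2, which overlap the retained introns of PSMD6 on the opposite strand, had 0 and 0 against 30 and 27 and 1 and 4 against 46 and 36. Over the same region the retained intron PSMD6 ENST00000463139 had 16 and 13 against 27 and 35, and ENST00000467853 had 108 and 92 against 93 and 111. Whether the counting used strand is not given in the sources used here, so reads of these partners may not be told apart. PSMA3-AS1 had 167 and 184 against 158 and 162 (-0.15).

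Of 46 pseudogenes of the members, 17 had a count and 4 had a mean of at least 30. PSMC1P1 had 1468 and 1519 against 938 and 956, a log2 fold change of -0.67 (-0.79 to -0.55), and PSMC1P9 had 103 and 100 against 129 and 143 (0.41, 0.03 to 0.79). PSMC1 itself had 36 and 47 against 16 and 22. How reads that match both PSMC1 and its pseudogenes were counted is not given in the sources used here, so they may not be told apart. PSMC3IP and PSME3IP1 share the start of the symbols but are not subunits, and were left out of the members. PSMC3IP, a cofactor of recombination, had 23 and 28 against 9 and 10, and PSME3IP1 had 556 and 563 against 513 and 513 (-0.14).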
